A study of Homo sapiens with 64 samples.

Results

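Airway epithelial cells treated with indacaterol and GSK256066 together for 6 h were compared with cells given vehicle for 6 h, on 4 arrays against 4, across all 19775 annotated genes. The arrays were chosen by their titles and are 8 of the 64 in the series, which holds 16 groups of 4. All cells were BEAS-2B, an immortalised human bronchial epithelial line, grown in serum-free keratinocyte medium with epidermal growth factor and bovine pituitary extract, kept a final day in the medium alone and treated at confluence. The vehicle group had neither drug, and the combination group had each drug at 10 nM. Groups given 10 nM indacaterol or 10 nM GSK256066 (GSK) alone for 6 h, and the combination and vehicle groups at 1, 2 and 18 h, served to show where the combination at 6 h differed, and all 64 arrays entered the fit that gives the spread behind each p-value. One immortalised line stands for the airway epithelium here, and nothing in the labels says whether replicates were separate cultures, so p-values measure the spread between these samples, which may be technical.

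Indacaterol is a long-acting agonist of the beta-2 adrenoceptor, a receptor that couples through the stimulatory G protein to adenylyl cyclase and so raises cyclic AMP (cAMP). GSK256066 blocks the breakdown of cAMP by phosphodiesterase 4 (PDE4) enzymes. Cyclic AMP activates protein kinase A, which phosphorylates the transcription factor CREB at promoters holding cAMP response elements, and the genes switched on include feedback inhibitors of the pathway, such as phosphodiesterases and salt-inducible kinases. Both drug classes are used or studied in obstructive lung disease, where the airway epithelium is one of their targets.

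The full cAMP response element reads TGACGTCA, which is its own reverse complement, and the shorter site TGACG is contained in it. The promoters of 7 genes are shown so that it can be seen how unlike these windows were among genes that rose. They are the greatest rises with a RefSeq promoter entry (CRISPLD2, NR4A3 and SMOC1), the CREB targets SIK1, RGS2 and DUSP1, and PDE7B, which was chosen after its values were seen. Each runs from 250 bases before to 50 bases after the RefSeq start on GRCh38.p14, and capitals mark TGACG or its reverse complement CGTCA. The windows are chr16:84819735-84820034 on the plus strand for CRISPLD2, chr9:99821635-99821934 plus for NR4A3, chr14:69879166-69879465 plus for SMOC1, chr21:43427082-43427381 minus for SIK1, chr1:192808789-192809088 plus for RGS2, chr5:172771146-172771445 minus for DUSP1 and chr6:135851451-135851750 plus for PDE7B.
CRISPLD2: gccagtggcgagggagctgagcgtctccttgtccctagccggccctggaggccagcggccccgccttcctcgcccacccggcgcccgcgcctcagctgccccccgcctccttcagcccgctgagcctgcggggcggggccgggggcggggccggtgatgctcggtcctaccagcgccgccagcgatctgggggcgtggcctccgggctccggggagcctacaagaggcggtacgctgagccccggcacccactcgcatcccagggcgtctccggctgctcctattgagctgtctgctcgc
NR4A3: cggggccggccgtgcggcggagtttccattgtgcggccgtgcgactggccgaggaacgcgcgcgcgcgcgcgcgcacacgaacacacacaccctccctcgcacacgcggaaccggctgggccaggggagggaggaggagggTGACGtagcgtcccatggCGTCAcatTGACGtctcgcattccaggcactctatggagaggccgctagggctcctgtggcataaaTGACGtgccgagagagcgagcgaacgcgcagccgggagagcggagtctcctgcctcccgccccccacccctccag
SMOC1: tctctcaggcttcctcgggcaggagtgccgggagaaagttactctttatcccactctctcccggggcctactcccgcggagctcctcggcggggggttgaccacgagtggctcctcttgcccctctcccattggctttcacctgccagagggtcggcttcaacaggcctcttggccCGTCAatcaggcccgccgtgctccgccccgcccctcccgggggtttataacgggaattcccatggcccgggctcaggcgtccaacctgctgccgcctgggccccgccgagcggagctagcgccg
SIK1: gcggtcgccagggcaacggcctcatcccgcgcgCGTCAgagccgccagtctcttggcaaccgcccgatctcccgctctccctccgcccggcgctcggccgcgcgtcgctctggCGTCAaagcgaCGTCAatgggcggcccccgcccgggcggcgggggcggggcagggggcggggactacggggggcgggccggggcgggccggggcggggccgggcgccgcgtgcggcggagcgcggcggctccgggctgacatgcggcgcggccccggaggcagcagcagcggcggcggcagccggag
RGS2: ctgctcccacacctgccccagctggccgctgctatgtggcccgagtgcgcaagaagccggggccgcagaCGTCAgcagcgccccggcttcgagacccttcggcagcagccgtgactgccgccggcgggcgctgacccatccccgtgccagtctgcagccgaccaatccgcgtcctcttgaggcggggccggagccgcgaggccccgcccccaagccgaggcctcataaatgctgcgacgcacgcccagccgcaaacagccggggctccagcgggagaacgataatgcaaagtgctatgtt
DUSP1: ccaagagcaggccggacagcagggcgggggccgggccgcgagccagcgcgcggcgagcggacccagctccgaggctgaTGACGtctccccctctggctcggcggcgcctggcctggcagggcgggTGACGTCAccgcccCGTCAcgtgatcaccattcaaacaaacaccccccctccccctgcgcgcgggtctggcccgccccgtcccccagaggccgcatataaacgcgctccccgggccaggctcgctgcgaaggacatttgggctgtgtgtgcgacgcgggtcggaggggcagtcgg
PDE7B: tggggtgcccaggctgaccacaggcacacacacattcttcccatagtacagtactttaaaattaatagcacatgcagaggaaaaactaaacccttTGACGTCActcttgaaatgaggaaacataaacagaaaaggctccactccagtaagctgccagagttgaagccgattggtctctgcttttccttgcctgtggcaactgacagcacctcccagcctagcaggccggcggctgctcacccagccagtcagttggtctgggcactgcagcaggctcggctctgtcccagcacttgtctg
The full TGACGTCA stood in the DUSP1 and PDE7B windows, and TGACG on either strand, whose matches can overlap within TGACGTCA, stood 4 times in NR4A3, 3 times in SIK1, once in SMOC1 and in RGS2, and at no place in CRISPLD2. Of 79 genes that rose and had an entry, 5 held TGACGTCA (6.33%: CHMP1B, DUSP1, MLXIP, PDE7B and TAF4B), as did 2 of 45 that fell (4.44%: RBM12 and ZNF143), against 3.1% of 15384 tested genes with an entry and 1.85% of all 35116 promoters. TGACG on either strand was held by 32 of the 79 (40.5%) and 21 of the 45 (46.7%), against 34.7% of tested genes and 24.6% of all promoters. These shares describe letters in a fixed window and were not tested.

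Signals are probe-set intensities, and each gene is represented by its brightest probe set. The median signal per array ran from 112.2 to 123.4. The epithelial keratin KRT18 was bright in both groups, with signals of 8167, 8817, 8412 and 7809 in vehicle replicates 1 to 4 and 8782, 8589, 8007 and 7641 with both drugs. The fibroblast gene VIM was also bright (10466, 11105, 10441 and 10777, and 11440.1, 10414, 10700.4 and 9928), while the ciliated-cell factor FOXJ1 (at most 24.6 on these arrays) and the leukocyte gene PTPRC (at most 38.8) were dim. Of the markers of epithelial (13 measured), fibroblast (12), leukocyte (10), ciliated (9) and secretory cells (11), 0 passed the test, and the summed signal of each list overlapped between the groups: 17710 to 424600 in vehicle and 18210 to 420200 with both drugs for epithelial cells, 21080 to 27180 and 21860 to 27810 for fibroblasts, 1525 to 1677 and 1583 to 1837 for leukocytes, 617 to 689.1 and 598.9 to 690.4 for ciliated cells, and 1189 to 1640 and 1295 to 1710 for secretory cells. The highest epithelial sum in each group came mostly from KRT14 on replicate 3, so the overlap of that sum says little about the other epithelial markers. Replicate 3 stood apart in both groups: both of its arrays exceeded the other 6 by 4-fold or more in 112 genes and fell short of them by as much in 6, and 0 of these genes were called in the comparison. The basal keratin KRT14 had 23.2, 29.3, 355026 and 17.033 in vehicle and 31.7, 29.2, 344597 and 20.7 with both drugs. Calls without replicate 3 are therefore given beside the groups of genes.

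Both drugs together changed 150 genes at 6 h (0.759% of those tested; limma, Benjamini-Hochberg adjusted p under 0.05), of which 98 rose (0.496%) and 52 fell (0.263%). The rises were larger than the falls: their median size was 0.80 on the log2 scale (1.74-fold) against 0.40 (1.32-fold), and 30 genes rose (0.152%) and 1, EGR1, fell (0.00506%) at least 2-fold. Dim genes were few among them, with 4 of the rises and 1 of the falls at a mean signal under 64. In 145 of the 150 (0.733% of all genes) the 4 arrays of one group all lay above the 4 of the other, the arrangement that gives the smallest exact two-sided permutation p of 0.0286. Over all genes 1127 were so arranged (5.7%; 538 higher, 2.72%, and 589 lower, 2.98%), and 1510 had an unadjusted p under 0.05 (7.64%). The 12 greatest rises and 12 greatest falls named below were chosen among the 145. The lack of overlap between their groups was thus fixed by the choice and is no further evidence. The median change of all genes was 0.0021, with 5% to 95% of genes between -0.236 and 0.276. Changes are differences of mean log2(signal + 16), so that those of dim genes are understated, and each stands with its standard error at n = 4 per group.

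The count depended on which arrays entered the fit and on how they were paired and scaled. Same-numbered arrays of the compared groups deviated together, and with the replicate number as a block 1043 genes were called (5.27%; 505 higher, 2.55%, and 538 lower, 2.72%), among them all of the 150. Quantile normalization gave 335 (1.69%; 167 higher, 0.845%, and 168 lower, 0.85%), so the excess of rises over falls was not seen under either setting. Without replicate 3 there were 147 (0.743%; 102 higher, 0.516%, and 45 lower, 0.228%), of which 83 were among the 150. A fit on the 8 compared arrays alone called 16, of which 15 were among the 150, and with the replicate block on these 8 it called 239, of which 73 were. Leaving out replicate 1, 2 or 4 gave 67, 59 and 83, and leaving out the combination array of replicate 1 or of replicate 3 gave 94 and 83.

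Enzymes and transcripts that damp or carry the cAMP signal were among the greatest rises. PDE7B, a cAMP-specific phosphodiesterase that PDE4 inhibitors do not block, had signals of 122, 114, 95.6 and 78.043 in vehicle replicates 1 to 4 and 562, 419.8, 484 and 486 with both drugs. The groups did not overlap, as its choice among the greatest rises required, and the log2 change was 2.10 ± 0.22 (4.28-fold, adjusted p 5.48e-09, limma). PDE4D, which encodes one of the enzymes GSK inhibits, had 431, 318, 420.5 and 341 in vehicle and 1800.2, 816, 3384 and 816 with both drugs. Replicates 1 and 3 carried the highest treated values, and the change was 1.88 ± 0.44 (adjusted p 0.0165, limma). PDE4D was not called when any 1 replicate was left out (adjusted p 0.318, 0.0763, 0.0604 and 0.0519 without replicates 1 to 4, limma). The other measured PDE4 genes did not pass: PDE4A changed by 0.06 ± 0.10 and PDE4B by 0.46 ± 0.22. SIK1, a kinase that holds co-activators of CREB in the cytoplasm, had 713, 445, 629.7 and 425 against 2274, 1029.9, 3604 and 795. Its change was 1.55 ± 0.38 (adjusted p 0.0295, limma). SIK1 was not called without replicate 1, 2 or 3 (adjusted p 0.372, 0.176 and 0.144, limma) and was called without replicate 4. A near-identical copy, SIK1B, exists in the annotation, so the signal may come from either. Of 56 measured cAMP pathway genes these 3 rose (5.36%, against 0.759% of all genes called) and 0 fell, and the list's median was 0.03. The lists here and below were written with earlier results of these data known, and some share genes. Their shares beside that of all genes are therefore a description and not independent support. None of the 5 receptor genes, 6 cyclases or 6 protein kinase A subunits passed. With the replicate block 7 rose, adding PDE3A, PDE8B, AKAP12 and SIK2, and 4 fell (ADRB1, GNAI3, ADCY7 and PDE1C), and without replicate 3 the 2 that passed were PDE7B and AKAP12. With the block on the compared arrays alone PDE4D (adjusted p 0.0502) and SIK1 (0.0543) were not called.

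Of 27 measured CREB targets 5 rose and 1 fell (22.2% called, against 0.759% of all genes), and the list's median change was 0.57 against 0.0021 over all genes. SIK1 and PDE4D belong to this list and to the cAMP list. NR4A3, an orphan nuclear receptor of the early response, was dim in vehicle (10.1, 7.97, 12.3 and 2.48) and had 373, 67.4, 163 and 63.8 with both drugs. All treated arrays lay above all vehicle arrays, as its choice among the greatest rises required. Replicate 1 was the highest and replicates 2 and 4 the lowest, and the change was 2.62 ± 0.58 (adjusted p 0.00889, limma). NR4A3 was not called without replicate 1, 2 or 3 (adjusted p 0.138, 0.0668 and 0.0702, limma) and was called without replicate 4. RGS2, which shortens G protein signalling, rose from 1516, 1406, 910.1 and 1536 to 5115, 2229.7, 2964 and 2004, by 1.12 ± 0.28 (adjusted p 0.0322). DUSP1, a phosphatase that switches off MAP kinases, rose from 8203, 7154, 5226 and 7279 to 10764, 10142, 10269.6 and 9723, by 0.57 ± 0.12 (adjusted p 0.00499). Of 7 measured feedback regulators SIK1, RGS2, DUSP1 and PDE4D rose, and of 12 transcription factors NR4A3 rose and EGR1 fell; the difference between these roles was not tested. FOS (0.68 ± 0.53), CREM (0.13 ± 0.11) and NR4A1 (0.66 ± 0.26) did not pass. With the replicate block 13 targets rose and 1 fell, and without replicate 3 the called members were DUSP1 and EGR1 alone, with a median over the list of 0.44. With the block on the compared arrays alone RGS2 (adjusted p 0.098) and DUSP1 (0.0713) were not called. RGS2 was not called when any 1 replicate was left out (adjusted p 0.107, 0.184, 0.199 and 0.0932 without replicates 1 to 4, limma). DUSP1 was not called without replicate 2 or 4 (adjusted p 0.0972 and 0.0734, limma).

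Among called genes whose groups did not overlap, CRISPLD2 and CSGALNACT1 had the greatest rises on the log2(signal + 16) scale. With a pseudocount of 1 NR4A3 was above both, at 3.96 against 3.06 and 3.05. With a pseudocount of 64 NR4A3 was below both, at 1.49 against 2.80 and 2.55, and was not called (adjusted p 0.101, limma). CRISPLD2, a secreted lipopolysaccharide-binding protein, rose from 415, 254, 220.2 and 236 to 4012, 2119, 1688 and 1873, 7.95-fold (2.99 ± 0.37; adjusted p 3.32e-07, limma). CSGALNACT1, which adds the first N-acetylgalactosamine of chondroitin sulphate chains, rose from 146, 109.9, 95.5 and 159.6 to 1598, 678, 1229 and 903, 7.52-fold (2.91 ± 0.25; adjusted p 1.72e-11). In both genes the lowest treated array was over 4 times the highest vehicle array. CSGALNACT1 was alone among 20 measured glycosaminoglycan synthesis enzymes in passing (median of the list 0.08); with the replicate block CHSY1 and UST passed too. SMOC1, a secreted calcium-binding matrix protein that antagonises bone morphogenetic proteins, had 506, 157, 453 and 131 in vehicle and 2259, 745, 2627 and 956 with both drugs (2.37 ± 0.60; adjusted p 0.0382). Its arrays fell into 2 levels in both groups, with replicates 1 and 3 above replicates 2 and 4. The call was lost when any 1 replicate was left out (adjusted p 0.168, 0.140, 0.137 and 0.234 without replicates 1 to 4, limma). GALNT15, which starts mucin-type O-glycans, rose from 284, 248, 189 and 184 to 1718, 524, 1409.9 and 628 (2.01 ± 0.26; adjusted p 9.29e-07). The cAMP-inducible long non-coding RNA LINC00473 rose from 179.8, 118, 63.995 and 95.6 to 792, 683, 440.2 and 579 (2.34 ± 0.33; adjusted p 6.13e-06).

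LPL, SLC7A2, STEAP4 and PID1 were also among the 12 greatest rises, and all 4 were called without replicate 3 (adjusted p 0.0187, 6.01e-07, 3.53e-09 and 0.00212, limma). SLC7A2 and STEAP4 kept the call in every setting run. LPL was not called without replicate 1, 2 or 4 (adjusted p 0.505, 0.0816 and 0.168, limma). PID1 was not called without replicate 1 or 4 (adjusted p 0.298 and 0.0519, limma). LPL, the lipase that frees fatty acids from circulating triglyceride, had 553, 369.9, 873 and 343 in vehicle and 3575, 1063, 4689 and 1306 with both drugs (2.11 ± 0.53; adjusted p 0.0333, limma). Replicates 1 and 3 were again the highest treated arrays. SLC7A2, a transporter of arginine and other cationic amino acids, rose from 685, 495, 535 and 617 to 2786, 1763, 2818 and 2327 (2.01 ± 0.19; adjusted p 2.90e-10). STEAP4, a metalloreductase of endosomes and the cell surface, rose from 397, 444, 209.6 and 406 to 1766, 1323, 1458 and 1306 (2.00 ± 0.30; adjusted p 2.78e-05). PID1, an adaptor that dampens insulin receptor signalling, rose from 219, 179.9, 320.3 and 185 to 858, 400.1, 2074 and 486 (1.74 ± 0.38, adjusted p 0.00746, limma), with the highest value on replicate 3. Its groups did not overlap, as the choice of the greatest rises required.

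**Figure D1:**
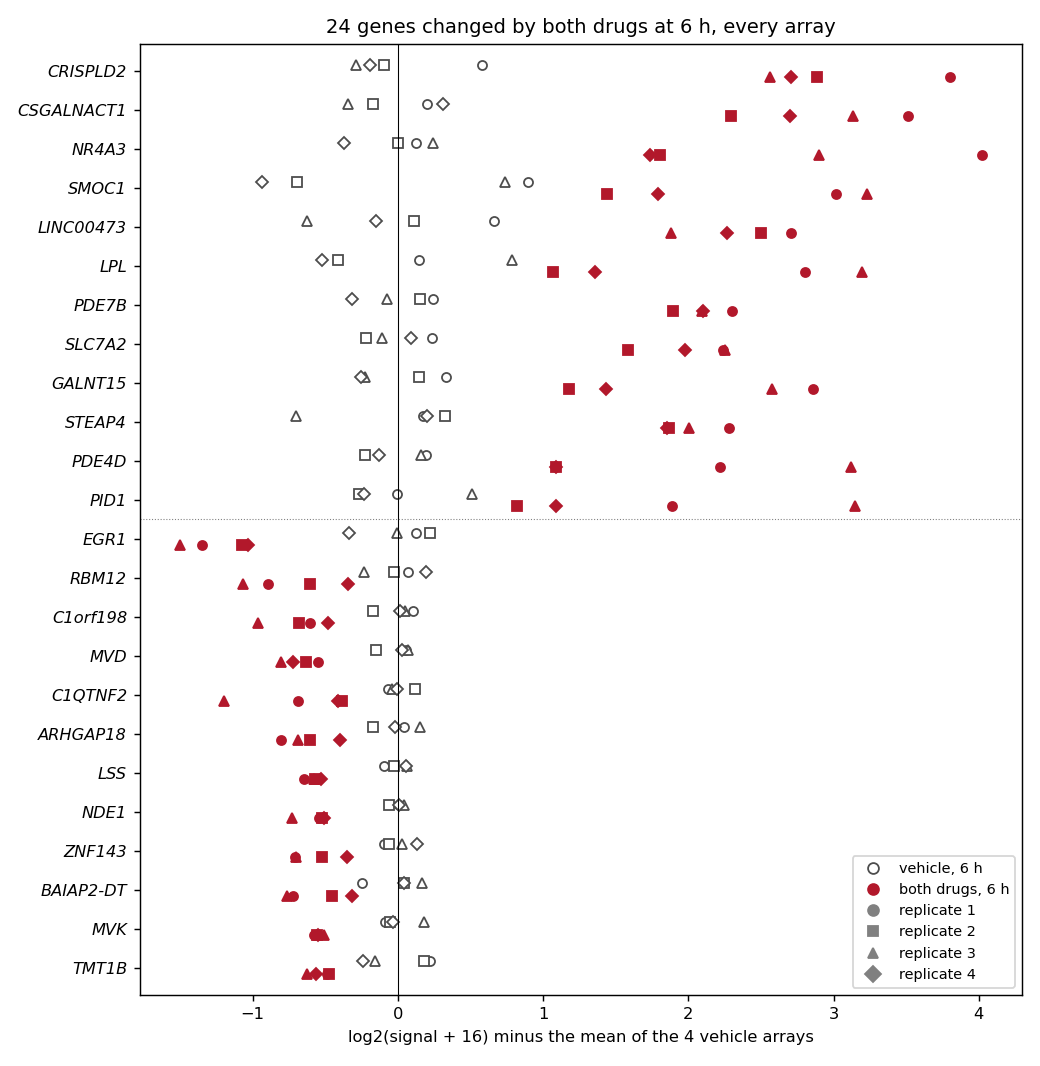
Each point is 1 array: log2(signal + 16) minus the mean of the 4 vehicle arrays, for the 12 greatest rises and 12 greatest falls at 6 h, with vehicle open, both drugs filled and the marker shape giving the replicate number. By the rule that chose these genes, the treated points lie to the right of all vehicle points for the rises and to the left for the falls. The changes run from 2.99 for CRISPLD2 to -1.24 for EGR1, with replicates 1 and 3 farthest out for SMOC1, LPL, GALNT15, PDE4D and PID1.

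The fall of EGR1 was the one that reached 2-fold. EGR1, an immediate-early zinc finger factor that also responds to growth factors, had 1449, 1551, 1324 and 1049 in vehicle and 511, 622, 459 and 642 with both drugs, which was 2.36-fold lower (-1.24 ± 0.19; adjusted p 2.78e-05, limma). The groups did not overlap, as its choice among the greatest falls required, and the call held without replicate 3 (adjusted p 0.00666, limma). In a list of 20 outputs of the ERK pathway, to which EGR1 belongs, it was the single fall and DUSP4, another MAP kinase phosphatase, the single rise (1799, 1696, 1258 and 1568 against 3034, 2540.5, 2966 and 2198; 0.76 ± 0.14); the list's median was 0.02.

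Of 19 measured cholesterol synthesis genes, 5 fell, 0 rose and 14 did not pass (26.3% called, against 0.759% of all genes). The changes were small: all 19 were negative, against 49.3% of all genes, and the list's median was -0.23. In 9 of them the groups did not overlap, as in 5.7% of all genes. In 13 of the 19 every treated array was below the vehicle array of the same number, against 16% of all genes. Along the pathway, MVK (mevalonate kinase) fell from 2009, 2064, 2423 and 2087 to 1428, 1453, 1500.0 and 1455 (-0.55 ± 0.08; adjusted p 2.85e-05, limma). MVD, the decarboxylase that makes the first isoprenoid unit, fell from 1668, 1442, 1689.5 and 1634 to 1093, 1029, 914 and 969 (-0.68 ± 0.13; adjusted p 0.00118). LSS, which closes the sterol rings, fell from 4513, 4743, 5049 and 5031 to 3078, 3242, 3227 and 3338 (-0.58 ± 0.12; adjusted p 0.00407). For these enzymes the treated arrays were close to each other. They were all below the vehicle arrays, as the choice of the greatest falls required. NSDHL and HSD17B7, which act together to remove methyl groups from the sterol, fell by 0.49 and 0.37 on the log2 scale (adjusted p 0.00895 and 0.0475). SQLE, the epoxidase before LSS, changed by -0.26 ± 0.07 with groups that did not overlap and an adjusted p of 0.0687, and HMGCS1, an early enzyme, by -0.31 ± 0.13 (adjusted p 0.435). The sterol regulators SREBF2 (-0.04 ± 0.10) and INSIG1 (-0.07 ± 0.11) did not pass. With the replicate block HMGCS1, SQLE and TM7SF2 joined the 5, and without replicate 3 the same 5 were called. HSD17B7 and NSDHL were not called without replicate 1, 2 or 4, and LSS was not called without replicate 2 (adjusted p 0.118, limma). Over the 22 other settings HSD17B7 lost the call in 14, NSDHL in 6, LSS and MVK in 1 each and MVD in 0.

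Next to MVK lies MMAB, a vitamin B12 enzyme read in the opposite direction, and their promoter windows (chr12:109573544-109573843 and chr12:109573455-109573754) share 211 bases. MMAB, looked up because of this position, fell from 2143, 2270.0, 2483 and 2223 to 1739, 1643, 1509 and 1722 (-0.46 ± 0.09; adjusted p 0.0013, and 0.11 without replicate 3). NPC1, which exports cholesterol from lysosomes and was chosen after its values were seen, rose from 2822, 2426, 2369.9 and 2619 to 5590.0, 4166, 4085 and 4105 (0.80 ± 0.12; adjusted p 4.73e-05). All 9 measured fatty acid synthesis genes also had negative changes, with a median of -0.21, but 0 passed, and the intervals of most spanned 0. With the replicate block 3 of them fell: ACSS2, SREBF1 and ME1.

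**Figure D2:**
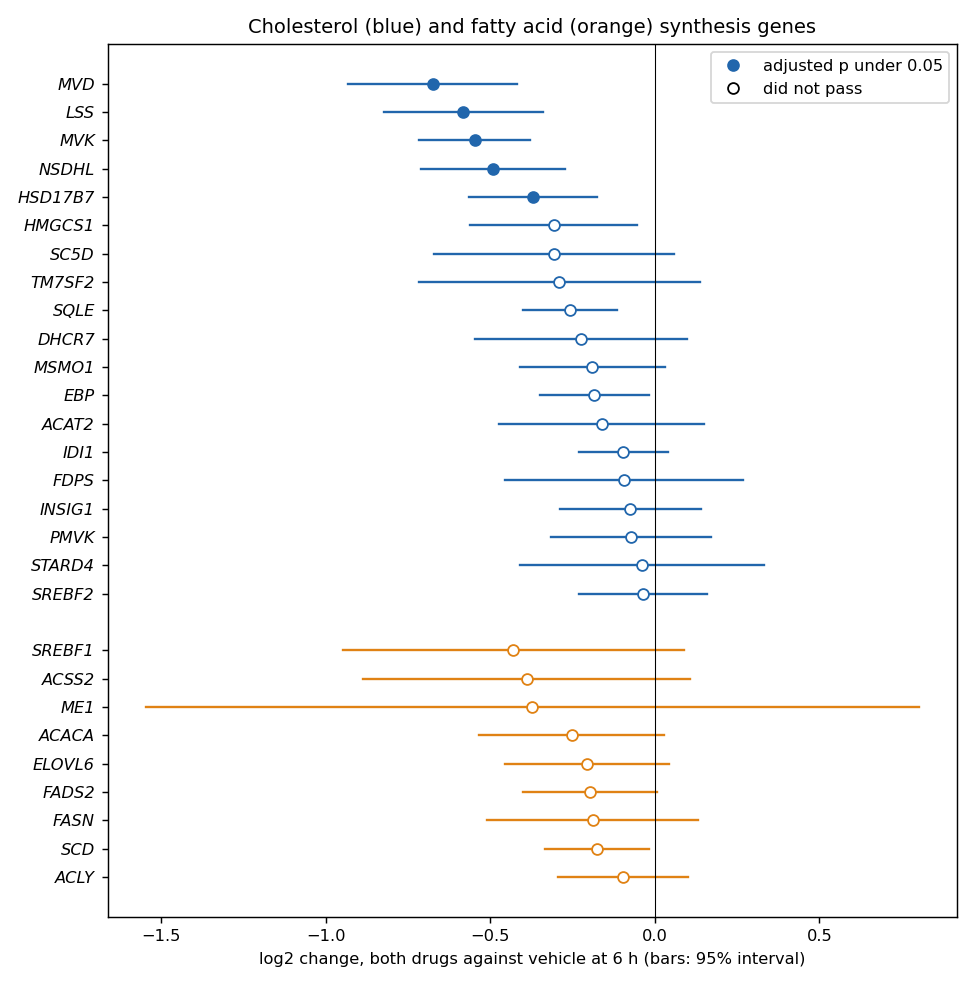
Each row is 1 gene, with the log2 change of both drugs against vehicle at 6 h on the horizontal axis and its 95% interval from the limma fit; filled points passed an adjusted p of 0.05. All 19 cholesterol genes (blue) and all 9 fatty acid genes (orange) lie left of 0, from -0.68 for MVD to -0.04 for SREBF2 and STARD4, and the 5 filled points are MVD, LSS, MVK, NSDHL and HSD17B7.

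The remaining greatest falls had no common role by name. RBM12, an RNA-binding protein, fell from 3118, 2910.4, 2529.9 and 3394 to 1589, 1947, 1409 and 2338 (-0.73 ± 0.15; adjusted p 0.00454, limma). ZNF143, a transcription factor found at many promoters, fell from 669.9, 686, 733 and 786 to 433, 496, 436 and 560.1 (-0.57 ± 0.08; adjusted p 4.47e-06). ARHGAP18 fell from 1255, 1078, 1355 and 1200.2 to 691, 796, 752 and 921 (-0.62 ± 0.14; adjusted p 0.0141). Their groups did not overlap, as the choice of the greatest falls required. C1orf198 fell by 0.68, NDE1 (a dynein and centrosome regulator) by 0.58, C1QTNF2 (a secreted C1q-like protein) by 0.67, the non-coding transcript BAIAP2-DT by 0.56 and the methyltransferase TMT1B by 0.54 on the log2 scale. Without replicate 3, C1QTNF2 (adjusted p 0.37), BAIAP2-DT (0.104) and TMT1B (0.137) were no longer called. RBM12 was not called without replicate 1 or 2 (adjusted p 0.168 and 0.0793, limma). The same held for ARHGAP18 (0.429 and 0.103) and TMT1B (0.419 and 0.264). C1QTNF2, at a mean signal of 62.2, lost the call in 15 of the settings run, including those that left out any 1 replicate.

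Glucocorticoid-inducible genes, a set that cAMP is also known to reach in part, rose in 5 of 26 measured (19.2%, against 0.759% of all genes called) and fell in 0. A negative change was seen in 1 of the 26, against 49.3% of all genes. The called members were CRISPLD2, RGS2 and DUSP1, whose arrays are given above, with CEBPD and SGK1. CEBPD, a transcription factor of the acute phase, rose from 4178, 3612, 3958 and 3460.5 to 7251, 6018, 9729 and 4848 (0.83 ± 0.17; adjusted p 0.00387, limma). SGK1, a kinase that regulates sodium transport, rose from 1035, 1323, 666 and 1338 to 2296, 1931, 1976 and 1616 (0.87 ± 0.23; adjusted p 0.0417, and 0.107 without replicate 3). The list's median was 0.23. Several classical members did not pass: FKBP5 changed by 0.03 ± 0.20, TSC22D3 by 0.22 ± 0.11 and KLF9 by 0.34 ± 0.33. With the replicate block 11 rose, and without replicate 3 the called members were CRISPLD2, DUSP1 and CEBPD. With the block on the compared arrays alone CEBPD (adjusted p 0.0525) and SGK1 (0.11) were not called.

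In most other lists few or no members passed. Of 31 cytokines and chemokines IL15 rose (605, 528, 454 and 605 against 1241, 720.2, 1192 and 759; 0.78 ± 0.17) and 0 fell, and IL6, at 1.12 ± 0.47, did not pass. Of 23 YAP targets IGFBP3 rose (0.75 ± 0.17), of 13 NRF2 targets TXNRD1 fell (-0.23 ± 0.06), and of 7 genes of glucose sensing MLXIP rose (0.35 ± 0.09). Without replicate 3 none of these was called, with adjusted p 0.0662 for IL15, 0.0672 for IGFBP3, 0.103 for TXNRD1 and 0.182 for MLXIP. IL15 and TXNRD1 were also not called without replicate 1, 2 or 4, nor were IGFBP3 and MLXIP without replicate 2 or 4. None of 35 mitotic genes passed, although 29 had a negative change (median -0.11), and with the replicate block 8 of them fell, including MKI67, BIRC5 and TPX2. None of 33 interferon-stimulated genes passed; 29 had a negative change and their median was -0.25, beside -0.41 with indacaterol and -0.29 with GSK against the same vehicle arrays. With the block 1 of these rose and 2 fell. Members called were also 0 in the lists of growth factors (30 measured), circadian clock genes (16), unfolded protein and amino acid responses (20), hypoxia (21), extracellular matrix and proteases (24), feedback of transforming growth factor beta and bone morphogenetic proteins (13, median 0.35), prostaglandins (15), ion transport and mucins (26) and squamous differentiation (23).

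Some groups were formed after the values were seen and are given as description only. Of 17 genes of the insulin-like growth factor pathway 6 rose (35.3%, against 0.759% of all genes called) and 0 fell: PID1, the receptors IGF1R (1.13 ± 0.18) and IGF2R (0.44 ± 0.09), the binding proteins IGFBP3 and IGFBP4 (0.82 ± 0.21), and the adaptor IRS2 (0.46 ± 0.10). IGF1R had 731, 567, 835 and 711 in vehicle and 1447, 1228, 2539.7 and 1303 with both drugs, with no overlap. Without replicate 3 IGFBP3 was not called and the other 5 were. Among genes of surface and secreted signalling proteins, the complement receptor C5AR1 rose from 71.991, 63.5, 85.3 and 35.2 to 300.2, 197, 228 and 173 (1.60 ± 0.31), the cannabinoid receptor CNR1 by 1.26 ± 0.25, the inhibitory ligand CD200 by 1.45 ± 0.32 and WNT4 by 1.52 ± 0.26, of which CNR1 was not called without replicate 3 (adjusted p 0.0819). WNT4 had 563, 500.3, 673 and 435 against 2555, 1728, 812 and 1659.8, so that its smallest treated value was on replicate 3. Of 388 solute carrier genes 6 rose and 2 fell (2.06%), the greatest after SLC7A2 being the monocarboxylate-family gene SLC16A14 (1.39 ± 0.20) and the sulphate transporter SLC26A2 (0.92 ± 0.18), and of 502 ZNF-named zinc finger genes 0 rose and 2 fell (0.398%).

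With the replicate block on all arrays 51 genes rose and 2 fell at least 2-fold, and 22 of these were not called without it. PDK4, the kinase that shuts pyruvate out of oxidation, had 443, 57.4, 929 and 29.6 in vehicle replicates 1 to 4 and 3889.9, 483, 7834 and 377 with both drugs. The groups overlap, but each treated array was more than 8 times its own vehicle array; the change was 3.00 ± 1.47, with an adjusted p of 0.635 without and 1.85e-14 with the block. NR4A2, a relative of NR4A3, had 108, 83.9, 142 and 84.5 against 1285, 231, 1879 and 219.7 (2.38 ± 0.75; adjusted p 0.146 without the block, 1.58e-04 with it, and 0.0717 with it on the compared arrays alone). PDE3A, a phosphodiesterase inhibited by cyclic GMP, had 401, 692, 268 and 805 against 1148, 1529, 1086 and 1801 (1.43 ± 0.50; 0.248 and 1.13e-09). CDKN1C, a cell cycle inhibitor (1.66 ± 0.62), and COBL, an actin nucleator (1.54 ± 0.99), were likewise called with the block, as was the fall of NAV3, a microtubule-associated protein, by 1.47. NAV3 had 325, 383, 127 and 337 in vehicle and 81.5, 141, 33.3 and 137 with both drugs, lower on every pair. All of these were looked up after their values were seen, apart from the list members NR4A2, PDE3A and CDKN1C.

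**Figure D3:**
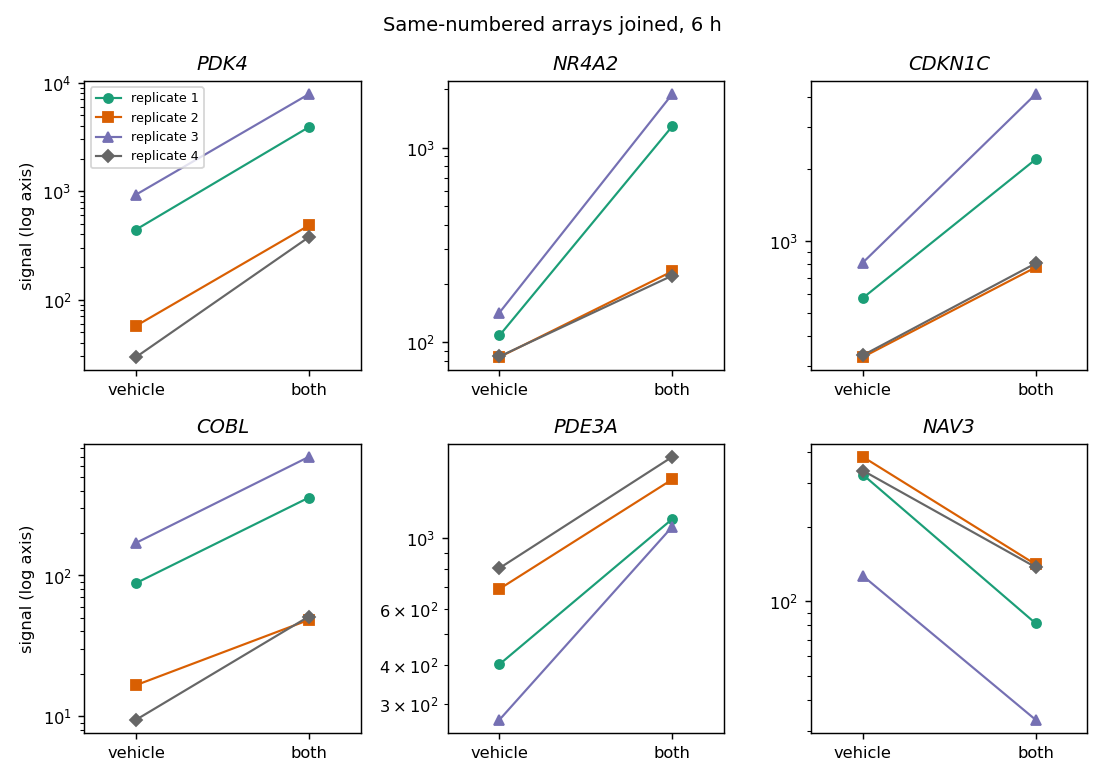
Each line joins the vehicle and the combination array of 1 replicate number at 6 h, with signal on a log axis that differs between panels. All 4 lines rise for PDK4, NR4A2, CDKN1C, COBL and PDE3A and fall for NAV3, while the starting levels differ widely, as in PDK4 where vehicle ran from 29.6 to 929.

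Whether both drugs did more than indacaterol was asked on the same arrays. Both drugs against indacaterol at 6 h gave 0 called genes (limma; 346 genes, 1.75%, had an unadjusted p under 0.05). The smallest adjusted p was 0.16, for TSGA10, a gene named for testis expression. The 1.75% is below what evenly spread p-values would give at 0.05. This fit has no replicate term, so differences between replicate numbers enter the spread and can widen the intervals. The absence of calls therefore does not show that the pair and indacaterol acted alike. With the replicate block the count was also 0. The 24 greatest changes were chosen on the same combination arrays, so the choice itself favours values further from 0 with both drugs, and their differences are a description. Among them the rises were 0.10 to 0.41 further from 0 with both drugs than with indacaterol, and the difference for the falls ran from -0.43 to 0.03. For CRISPLD2 the difference was 0.10 (95% interval -0.64 to 0.83), for SLC7A2 0.31 (95% interval -0.08 to 0.70) and for EGR1 -0.43 (95% interval -0.81 to -0.05). The unadjusted interval lay clear of 0 for EGR1, NDE1, ZNF143 and BAIAP2-DT and included 0 for the others, with upper bounds of 0.59 (PDE7B) or more for the rises. Indacaterol alone called 13 of the 24 at an adjusted p of 0.05, out of 54 genes over all (0.273%).

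Against GSK alone the combination differed in 71 genes (0.359%; 55 higher, 0.278%, and 16 lower, 0.0809%; 606 with the replicate block). The greatest were CSGALNACT1, at 2.84 (adjusted p 4.34e-11), CRISPLD2, at 2.65 (adjusted p 9.79e-06), and LINC00473, at 1.82 (adjusted p 0.00108). The greatest falls were EGR1, at -0.91 (adjusted p 0.00668), C1orf198, at -0.56 (adjusted p 5.74e-04), and MVD, at -0.56 (adjusted p 0.0234). GSK alone against vehicle called 0 genes (limma; 346 genes, 1.75%, had an unadjusted p under 0.05), and its values for the 12 rises were positive, from 0.07 for CSGALNACT1 to 1.18 for NR4A3 with a median of 0.32. For departure from the sum of the 2 single effects 0 genes were called (limma; 259 genes, 1.31%, had an unadjusted p under 0.05), and for the 12 rises this departure ran from -0.80 to 0.26. The 3 treatments share the vehicle arrays. As this fit has no replicate term, the absence of calls does not show that GSK had no effect. For departure from the sum the count was also 0 with the replicate block. With 4 arrays per group this absence does not show that the effects add.

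**Figure D4:**
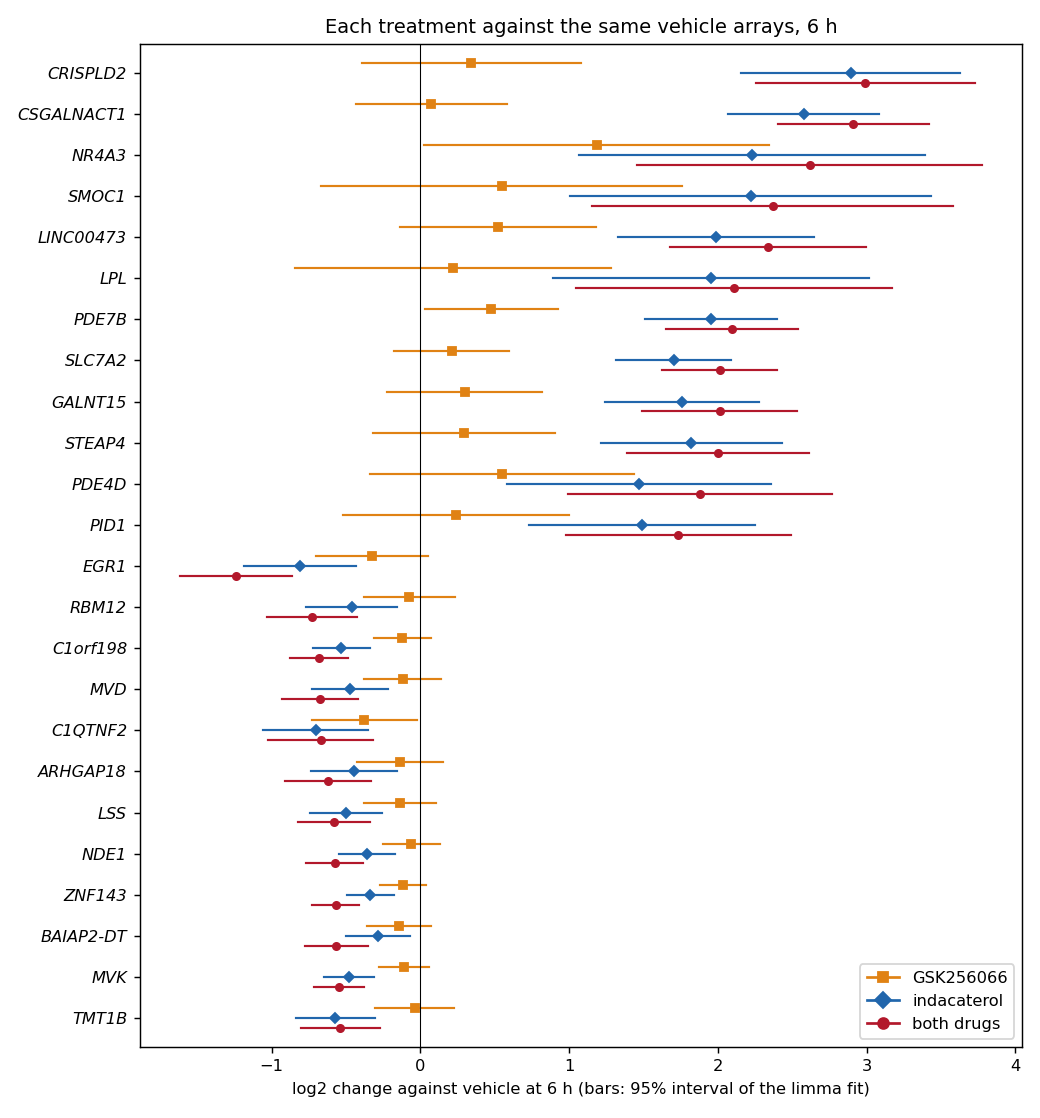
For each of the 24 genes the log2 change against vehicle at 6 h is shown for GSK (squares), indacaterol (diamonds) and both drugs (circles), with 95% intervals of the limma fit. Indacaterol and the combination stand at 2.89 and 2.99 for CRISPLD2 and -0.81 and -1.24 for EGR1, and GSK at 0.07 for CSGALNACT1 and 1.18 for NR4A3.

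The effect of the combination at 6 h was also compared with its effect at the other times. The combination called 56 genes at 1 h (0.283%), 208 at 2 h (1.05%) and 7 at 18 h (0.0354%), each against its own vehicle. Its effect differed between 6 h and 2 h in 7 genes (0.0354%), with 5 differences upward and 2 downward at 6 h. The replicate block gave 146, of which 46 were upward and 100 downward, and leaving out replicate 3 gave 18, of which 5 were upward and 13 downward. CSGALNACT1 was higher at 6 h by 2.92 ± 0.36 (adjusted p 1.62e-06), from a change of -0.01 at 2 h. PDE7B was higher by 2.11 ± 0.31 (adjusted p 1.45e-04), from -0.01, and EPHA5, an ephrin receptor, by 1.26 ± 0.22 (adjusted p 0.00242), from -0.03. At 1 h the values of these 3 were 0.38, -0.22 and -0.07. SGK1 was lower at 6 h by 1.56 on the log2 scale, having changed by 2.43 at 2 h, and LRRC75A, whose 2 h value was 0.93, differed by -1.22 ± 0.25 (adjusted p 0.0384). The other 2 were PCF11 and BORA, which were below vehicle at 2 h (-0.56 and -0.90) and did not pass at 6 h.

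Between 6 h and 18 h the effect differed in 9 genes (0.0455%), 5 upward and 4 downward at 6 h. The replicate block gave 230, of which 112 were upward and 118 downward, and leaving out replicate 3 gave 21, of which 17 were upward and 4 downward. CSGALNACT1 was higher at 6 h by 2.66 ± 0.36 (adjusted p 2.27e-05), SLC7A2 by 1.55 ± 0.27 (adjusted p 0.00322) and EPHA5 by 1.11 ± 0.22 (adjusted p 0.0129), as were KLHL29 and SFTPD, the collectin surfactant protein D. ZNF143 differed by -0.66 ± 0.11 (adjusted p 0.00217) and MVK by -0.63 ± 0.12 (adjusted p 0.00625), and with SRRT and TMEM126A these were below vehicle at 6 h and at 0.10, 0.09, 0.22 and 0.07 at 18 h. The cholesterol list had medians of -0.05 at 1 h, -0.05 at 2 h, -0.23 at 6 h and 0.01 at 18 h, and the CREB list 0.75, 0.96, 0.57 and 0.14. Of the 12 rises, 9 had their greatest value at 6 h and 3 (NR4A3, LINC00473 and PDE4D) at 2 h, and of the 12 falls 11 were at 6 h and EGR1 at 2 h. NR4A3 stood at 3.60, 5.46, 2.62 and 0.93 at 1, 2, 6 and 18 h, and SMOC1 at -0.13, 0.90, 2.37 and 1.43. Since these 24 were chosen at 6 h, their order over time is a description.

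**Figure D5:**
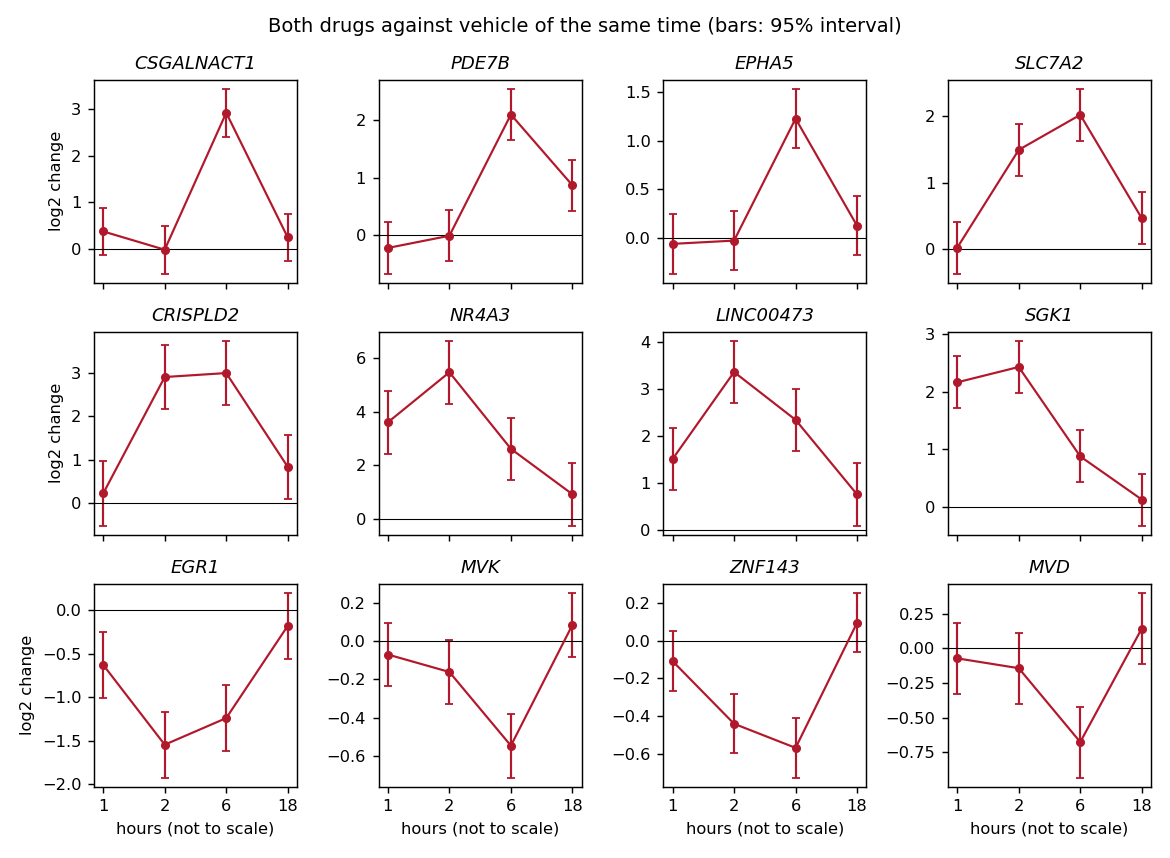
The log2 change of both drugs against the vehicle of the same time is plotted at 1, 2, 6 and 18 h (equal steps, not to scale) for 12 genes, with 95% intervals and a vertical scale of its own in each panel. CSGALNACT1, PDE7B and EPHA5 have intervals that include 0 at 1 and 2 h and peak at 6 h, NR4A3, LINC00473 and SGK1 peak at 2 h, and MVK, MVD and ZNF143 are lowest at 6 h and back at or above 0 at 18 h.

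Other probe sets of the same gene did not always follow the brightest. For MVK the other 3 gave -0.83, -1.01 and 0.05, for NSDHL the other gave -0.60, for STEAP4 1.54, for SMOC1 2.55 and for GALNT15 2.02 and 1.52. For CRISPLD2 and CSGALNACT1 the other probe set gave -0.02 and 0.05, at mean signals of 117.7 and 109.0. The rise of each thus rests on its brightest probe set alone. For ZNF143 the other probe set gave 0.03 at a mean signal of 37.2. The 5 further PDE4D probe sets gave 2.23, 1.45, 1.39, 0.42 and 0.18. For NDE1 the other 4 lay between -0.08 and 0.19, so its fall rests on 1 of 5 probe sets. The other probe sets of PID1 (0.25 and 0.20), EPHA5 (0.04 and 0.13) and BAIAP2-DT (-0.11, -0.38, -0.21 and 0.0001) did not pass either. The changes of these genes thus also rest on 1 probe set each, for EPHA5 at a mean signal of 72.7. For EGR1 the others gave -1.37 and -0.49, of which the latter did not pass. What each probe set covers within its gene was not analysed here.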

How the data were processed

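RNA of BEAS-2B cells was measured on 64 one-colour arrays. The authors deposited linear probe-set intensities; per the submitters' processing notes the tools were PLIER and Transcriptome Analysis Console 4, with order and settings not given in the sources used here. Lower quartiles of the 8 arrays ran from 37.53 to 39.73 and upper quartiles from 539.8 to 559.1, and 4 arrays per group limit the precision. The platform annotation gave 1 gene symbol to 41091 of 54675 probe sets, several to 1801 and none to 11721, and 62 were controls. The intensities were used as log2(value + 16), with each gene's brightest probe set over all arrays. One limma model (version 3.58.1, R 4.3.3) held a mean for each of 16 groups (48 residual degrees of freedom), with Benjamini-Hochberg adjustment over 19775 genes, two-sided, and calls at an adjusted p under 0.05. The model was also run on simulated data. The simulated arrays varied independently, without the shared deviation of same-numbered arrays described below. The simulation therefore does not test how that deviation affects the calls. Within groups, arrays correlated at 0.967 to 0.996 and none were duplicates.

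Same-numbered arrays of both groups deviated together (r = 0.313, 0.612, 0.834 and 0.737 for numbers 1 to 4), as they did in the other comparisons (lowest r 0.162). Differently numbered arrays of these groups reached r = 0.5, above the value for number 1. Between the combination and GSK groups they reached 0.651, beside 0.162 for number 1. For number 1 these values therefore do not show pairing. The replicate block still took the numbers to pair the arrays, and the labels do not say what they mark.

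Genes were named by rule: 12 rises and 12 falls, the largest among calls without overlap between groups, up to 3 of each sign in other comparisons, and members of 27 lists. The members and lists were chosen with earlier results of these data known. Alternatives were quantile normalization, pseudocounts of 1 and 64, a minimum signal of 64, the mean of a gene's probe sets, a variance trend, the compared arrays alone, the replicate block and leaving out arrays. Promoters come from RefSeq (GRCh38.p14).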

Additional observations from a re-analysis of the deposited data

Results flagged for a closer look

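The effect of both drugs against vehicle of the same time differed between 6 h and 2 h by test in 7 genes: CSGALNACT1 (2.92), PDE7B (2.11), EPHA5 (1.26), PCF11 (0.86), BORA (0.79), SGK1 (-1.56) and LRRC75A (-1.22), all as differences in log2 change. Between 6 h and 18 h it differed in 9: CSGALNACT1 (2.66), SLC7A2 (1.55), EPHA5 (1.11), KLHL29 (0.85), SFTPD (0.74), ZNF143 (-0.66), MVK (-0.63), SRRT (-0.53) and TMEM126A (-0.38).

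In 164 groups of 4 arrays checked, 1 array stood far from the other 3 in 15, where chance gives about 1 in 20, and all but 1 of these were on replicate 3. The genes checked were chosen ones and included KRT14, KRT5 and S100A9, each flagged in both groups. The share is thus not that of all genes, and its excess over chance depends on the choice. On that replicate in vehicle, STEAP4 (209.6), RGS2 (910.1), SLC26A2 (4458), HRK (78.4) and NAV3 (127) were the lowest signals. With both drugs NDE1 (1061) and HMGCS1 (8665) were the lowest there and PDE4B (668) the highest. KRT14 (355026 in vehicle and 344597 with both drugs), KRT5 (32523 and 35121) and S100A9 (116958 and 867275) were the highest in both groups. The remaining one was NPC1 with both drugs in replicate 1, the highest at 5590.0.

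Outside the named genes, 13522 probe sets without a single gene symbol were fitted apart, and 7 were called higher and 3 lower with both drugs at 6 h.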

How the results depend on the processing

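Over 22 other settings the 24 greatest changes gave 527 values, of which 443 kept direction and call, 84 lost the call and 0 changed sign; 8 genes lost it in no setting. For both drugs against vehicle, 150 genes became 335 with quantile normalization, 16 on the compared arrays alone, 239 on these with a replicate block, 1043 with the replicate block on all arrays and 505 with it but without replicate 3; leaving out arrays gave 59 to 171 (94 and 83 without the combination array of replicate 1 or 3). The mean of a gene's probe sets gave 123 and changed the sign of 1 of the 150, ELAVL1. Against GSK, 71 became 157, 4, 22, 606 and 291 under the same 5 settings, and 25 to 87 without arrays (31, 27 and 25 without replicates 1, 2 and 4, 45 and 39 without the combination array of replicate 1 or 3, and 47 and 37 without the GSK array of replicate 2 or 4). For 6 h minus 2 h, 7 became 14, 2, 113, 146 and 95, and 1 to 18 without arrays (3, 3, 18 and 1 when leaving out the replicates in turn, 4 when leaving out the combination array of replicate 1 or 3, and 3 for the vehicle array of replicate 1, 2 or 4). For 6 h minus 18 h, 9 became 38, 1, 64, 230 and 79, and 3 to 21 without arrays (21, 5 and 3 without replicates 3, 1 and 4, and 14 without the combination array of replicate 2). The counts against indacaterol and for departure from additivity stayed at 0 in every setting run. The cause of these shifts was not tested. Of the 150, the replicate block on all arrays kept 150, with it but without replicate 3 141, and on the compared arrays 73. Dim genes, near the pseudocount of 16, have understated changes.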
